A study of Sus scrofa with 12 samples.

Results

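The miR-26 family is described here in the testis of Hezuo (HZ) and Landrace (LC) boars. Its members were selected by name, as every listed miRNA called miR-26 with or without a letter, an arm or the pig prefix ssc. The name rule found 6 of the 1452 listed miRNAs, and all 6 had counts in all 12 libraries. Because the family was chosen with its abundance and its breed difference at 120 days in view, those values are given as a description with no test.

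The study sequenced small RNAs from testes of boars of 30 and 120 days, and its methods call the HZ boars sexually immature at the first age and sexually mature at the second. It compares them with LC boars as a breed that matures later. The 4 groups of 3 libraries are Ha (HZ, 30 days), Hb (HZ, 120 days), La (LC, 30 days) and Lb (LC, 120 days), and the labels name no treatment. The methods name 3 boars per age and breed but also RNA extracted from a pool, so whether each library is 1 of those boars is not settled, and the p-values measure the spread between these libraries. Levels are given as TPM, the count of a miRNA divided by a total for its library and scaled to 1000000, which is not divided by length.

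A miRNA is cut from the paired stem of a hairpin transcript, and either arm, named 5p or 3p, can be kept as the mature strand. The mature strand guides the silencing complex to messenger RNAs through its seed, bases 2 to 8 from the 5′ end, so miRNAs with the same seed are grouped as a family. miR-26 hairpins lie within introns of CTDSP phosphatase genes in mammals, and the best known target of miR-26a is EZH2, the methyltransferase of the Polycomb complex that silences chromatin.

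The listed sequences are shown because they separate the members by arm and by seed, and the capitals mark bases 2 to 8. They are printed as the authors deposited them, with T in place of U.
ssc-miR-26a: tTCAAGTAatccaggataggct
ssc-miR-26b-5p: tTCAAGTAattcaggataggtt
miR-26-z: tTCAAGTAatccaggataggaaa
miR-26-x: cTTCAAGTaatccaggataggct
ssc-miR-26b-3p: cCTGTTCTccattacttggct
miR-26-y: cCTATTCTtgattacttgtttc

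The seed of ssc-miR-26a, TCAAGTA, was carried by 3 listed miRNAs, namely ssc-miR-26a, ssc-miR-26b-5p and miR-26-z, and by no other entry of the 1452. ssc-miR-26b-5p differed from ssc-miR-26a by the substitutions C11T and C21T, counted from 1 at the 5′ end. miR-26-z shared its first 20 bases with ssc-miR-26a and differed from it by 3 edits at the 3′ end. miR-26-x held the whole ssc-miR-26a sequence behind 1 extra base at the 5′ end, which moved its bases 2 to 8 by 1 position and gave it a seed of its own. ssc-miR-26b-3p and miR-26-y carry the sequence of the opposite arm and had different seeds. Each of them gave 17 base pairs when paired in silico with either ssc-miR-26a or ssc-miR-26b-5p. For miR-26-y the computed free energy was -21.5 kcal/mol with ssc-miR-26a and -19.9 with ssc-miR-26b-5p, and for ssc-miR-26b-3p it was -18.5 and -18.7. The sources used here do not define the suffixes x, y and z. No listed miRNA outside the family lay within 3 edits of a member, and the nearest to any of them were 7 edits away.

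In the RefSeq annotation of Sscrofa11.1, the hairpin gene MIR26A lies on chromosome 5 from 23112744 to 23112827, 84 bases in all. It falls within the bounds of CTDSP2, a phosphatase gene that spans 23111366 to 23132811 of the same chromosome. The table used here gives gene bounds and not exons. Without hairpin sequences, the tags of ssc-miR-26a and of the entries without a pig prefix were not assigned to a hairpin locus.

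The listed counts ranged from 6520197 to 16874633 per library, and no pair of replicates was alike within counting noise. Library Hb2 stood apart: its TMM scaling factor in the fit of Hb with Lb was 0.598, against 0.979 to 1.21 for the other 5, and ssc-miR-99a-5p took 16.3% of its counts, against 8.65% to 11.6% in the other 11 libraries. Fold changes of the members that include Hb2 are given with and without it. miR-202, the gonad marker, was detected with all 5 of its entries, and its summed level averaged 14421 to 21504 TPM over the 4 groups. Its sum was 9608 TPM in Hb2, the lowest of the 12 libraries.

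ssc-miR-26a was among the most abundant miRNAs of the testis at both ages and in both breeds. It had a mean of 85726 TPM over the 12 libraries and ranked 2 of all listed miRNAs by that mean, behind ssc-miR-99a-5p. Within single libraries it ranked 1 in 5 and 2 in 7. Of the listed counts it took 10.2%, 9.40% and 11.1% in the Ha libraries. The Hb libraries gave 9.16%, 13.4% and 10.8%, and the La libraries 10.7%, 10.7% and 11.1%. In Lb the shares were 6.31%, 7.14% and 6.36%. All 3 Lb libraries were below all 9 others. The group mean was 10.2% ± 0.872 for Ha, 11.1% ± 2.15 for Hb, 10.8% ± 0.211 for La and 6.60% ± 0.463 for Lb (SD, n = 3 each).

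**Figure D1:**
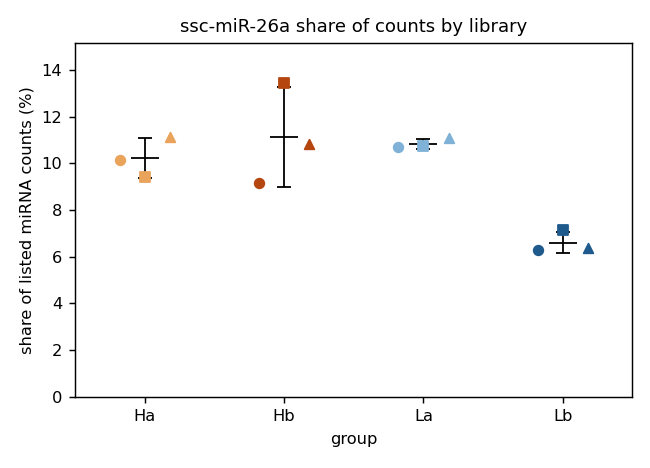
Share of the listed miRNA counts of each library taken by ssc-miR-26a, in percent, by group. Points are libraries (circle, square and triangle for replicates 1, 2 and 3), the wide bar is the group mean and the error bars are ± 1 SD. The 3 Lb libraries sit between 6.31% and 7.14%, below the 9 libraries of the other groups, whose lowest value is 9.16%.

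The other members were much rarer and covered a wide range of levels. ssc-miR-26b-5p ranked 65 with a mean of 1216 TPM and miR-26-x ranked 81 with 871 TPM. ssc-miR-26b-3p, miR-26-y and miR-26-z ranked 360, 404 and 427, with means of 19.4, 14.8 and 11.0 TPM. Of the 11587072 family counts, ssc-miR-26a held 97.6%, ssc-miR-26b-5p 1.36% and miR-26-x 0.990%. The opposite-arm entries held 0.0225% (ssc-miR-26b-3p) and 0.0169% (miR-26-y), and miR-26-z held 0.0118%. The spread over libraries did not follow abundance: the highest library exceeded the lowest by 2.18 times for ssc-miR-26a, by 1.52 times for miR-26-y and by 5.78 times for miR-26-z.

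The level of ssc-miR-26a was 89773, 82956 and 99267 TPM in Ha and 80476, 119640 and 94068 TPM in Hb. The LC libraries gave 95481, 95969 and 98572 TPM at 30 days and 54793, 62326 and 55395 TPM at 120 days. Hb held both the highest library and the lowest outside Lb, while the 3 La libraries lay close together. The means ran in the order Hb (98061 ± 19885), La (96674 ± 1662), Ha (90665 ± 8192) and Lb (57505 ± 4186). The libraries of Hb, La and Ha overlapped one another, and Lb lay apart below them.

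ssc-miR-26b-5p, the paralog with the same seed, was ordered differently. In HZ it measured 994, 942 and 1000 TPM at 30 days and 1533, 1515 and 1770 TPM at 120 days. In LC it measured 1142, 1058 and 1076 TPM at 30 days and 1243, 1274 and 1048 TPM at 120 days. All Hb libraries exceeded the other 9, all La libraries exceeded those of Ha, and La and Lb overlapped.

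miR-26-z, which has the same seed and another 3′ end, was low in both 30-day groups. The HZ libraries had 6.73, 5.28 and 8.15 TPM at 30 days and 11.6, 16.1 and 30.5 TPM at 120 days. The LC libraries had 6.89, 5.97 and 5.75 TPM at 30 days and 13.1, 9.86 and 12.3 TPM at 120 days. Every 120-day library was above every 30-day library. These levels rest on 52 to 237 counts per library, far fewer than those of ssc-miR-26a.

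miR-26-x, the form with the extra 5′ base, averaged 943 ± 79.2 TPM (Ha), 924 ± 163 (Hb), 908 ± 16.0 (La) and 707 ± 83.8 (Lb), with the SD over n = 3 each. ssc-miR-26b-3p, the opposite arm of ssc-miR-26b-5p, was 22.4 ± 1.99, 19.5 ± 7.30, 21.8 ± 2.09 and 14.0 ± 1.63 TPM in the same order. Its 3 Hb libraries, at 22.5, 24.9 and 11.2 TPM, included the lowest of all 12. miR-26-y, the other opposite-arm sequence, was 15.3 ± 2.72, 14.6 ± 2.74, 16.2 ± 1.19 and 12.9 ± 1.50 TPM, and its groups were the closest of the 6 members.

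**Figure D2:**
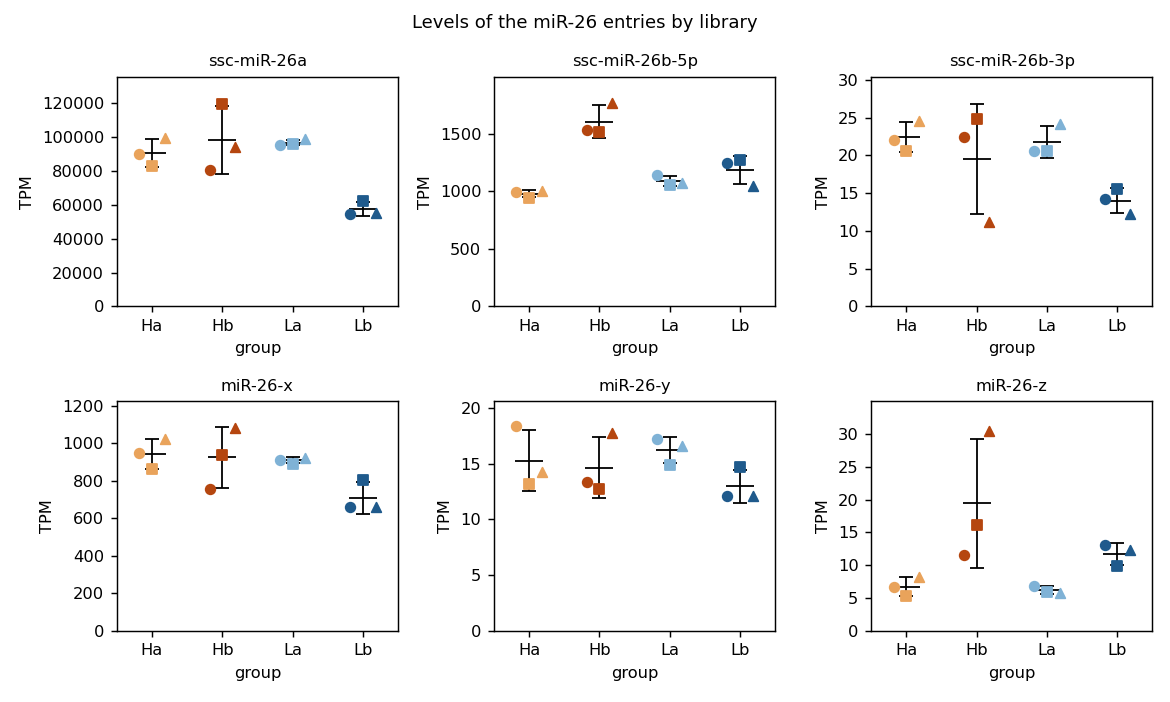
TPM of each of the 6 miR-26 entries by group, each panel on its own linear axis from 0. Points are libraries (circle, square and triangle for replicates 1, 2 and 3), with the group mean and ± 1 SD. The 3 Lb libraries of ssc-miR-26a are its lowest, the 3 Hb libraries of ssc-miR-26b-5p are its highest, and miR-26-z is higher in every 120-day library than in any 30-day library.

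Between 30 and 120 days in HZ (Ha vs. Hb), ssc-miR-26b-5p and miR-26-z rose, and none of the other 4 members passed the test. The test was the quasi-likelihood test of edgeR, with p-values adjusted after Benjamini-Hochberg over all miRNAs tested, and a miRNA is said to rise or fall where its adjusted p was under 0.05. A call by the thresholds of the study is a separate rule, an absolute log2 fold change over 1 with an unadjusted p under 0.05. miR-26-z rose by 1.70 on the log2 scale (SE 0.426, adjusted p 0.00725) and was called. ssc-miR-26b-5p rose by 0.87 (SE 0.254, adjusted p 0.0168), short of the fold threshold. For ssc-miR-26a the log2 fold change was 0.33 (SE 0.291, adjusted p 0.401). It was -0.01 for ssc-miR-26b-3p, 0.15 for miR-26-x and 0.09 for miR-26-y, with adjusted p from 0.696 to 0.994. By adjusted p, 2 of 6 members passed, against 34.3% of the 1441 miRNAs tested, and 1 of 6 was called, against 39.6% of all. The 3 Hb libraries also enter the breed difference by which the family was chosen, so these p-values are not independent of that choice. The median log2 fold change was 0.24 over the members and 0.32 over all miRNAs. Over the 437 miRNAs that averaged 10 TPM or more, as all 6 members did, it was 0.01. Without Hb2 the log2 fold change turned negative for ssc-miR-26a (-0.09) and miR-26-x (-0.06). It was then -0.50 for ssc-miR-26b-3p and 0.00 for miR-26-y, and 0.72 for ssc-miR-26b-5p and 1.67 for miR-26-z, which both still passed. Without Hb1, ssc-miR-26a had a value of 0.72 with an adjusted p of 0.0333, and ssc-miR-26b-5p reached 1.18 and was called. The adjusted p of ssc-miR-26b-5p was 0.0571 to 0.0884 without any 1 Ha library and 0.0557 with library size scaling. That of miR-26-z stayed under 0.05 with any 1 library left out.

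In LC the same interval (La vs. Lb) gave a fall of ssc-miR-26a, ssc-miR-26b-3p and miR-26-x and a rise of miR-26-z. ssc-miR-26a fell by 0.93 on the log2 scale (SE 0.104, adjusted p 1.71e-05). The 3 Lb libraries likewise enter the difference that chose the family, and the p-values of this comparison share that limit. ssc-miR-26b-3p fell by 0.82 (SE 0.192, adjusted p 0.00464) and miR-26-x fell by 0.54 (SE 0.123, adjusted p 0.00416). miR-26-z rose by 0.74 (SE 0.211, adjusted p 0.0141). The log2 fold change was -0.06 for ssc-miR-26b-5p (adjusted p 0.703) and -0.50 for miR-26-y (adjusted p 0.0585). By adjusted p, 4 of 6 members passed, against 40.2% of the 1446 miRNAs tested. None passed the fold threshold and so 0 of 6 were called by edgeR, against 32.1% of all, although 5 of 6 had an unadjusted p under 0.05, against 47% of all. DESeq2 also called 0, against 26.5% of all, and by its adjusted p 5 of 6 passed, against 39.2% of the 1276 miRNAs to which it gave one. The median log2 fold change was -0.52 over the members and 0.32 over all miRNAs. Over the 437 miRNAs that averaged 10 TPM or more it was -0.06. Scaling by library size moved the median of all miRNAs to 0.54 in this comparison. It gave -0.72 for ssc-miR-26a and turned the value of ssc-miR-26b-5p to 0.16. Without Lb2 the log2 fold change of ssc-miR-26a was -1.09, which the study's thresholds would call. The adjusted p of miR-26-z was 0.0617 without La3 and 0.0549 without Lb1. With all 12 libraries in 1 fit it was 0.145, and that of miR-26-x was 0.0542, so that neither passed.

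Whether the age changes differed between the breeds was not tested, since that difference contains the breed difference at 120 days by which the family was chosen.

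At 30 days the breeds were close (Ha vs. La). No member passed by adjusted p, against 11.3% of the 1278 miRNAs tested, and edgeR called 0 of 6, against 9.47% of all. DESeq2 called 0, against 6.74%, and passed 0 by adjusted p, against 14.2%. An unadjusted p under 0.05 was reached by 1 of 6 with edgeR, against 24.7% of all, and by 1 of 6 with DESeq2, against 19.6%. The log2 fold change was 0.18 for ssc-miR-26a (SE 0.0897, adjusted p 0.227) and 0.25 for ssc-miR-26b-5p (SE 0.0937, adjusted p 0.111). The other 4 lay between -0.03 and 0.18. The median was 0.11 over the members, -0.01 over all miRNAs and 0.03 over the 437 that averaged 10 TPM or more. Without Ha3 the adjusted p of ssc-miR-26a was 0.0369, at a log2 fold change of 0.26.

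At 120 days (Hb vs. Lb) all 6 members had lower fitted levels in LC than in HZ. The log2 fold change was -1.22 for ssc-miR-26a, -0.81 for ssc-miR-26b-5p, -0.91 for ssc-miR-26b-3p, -0.79 for miR-26-x, -0.53 for miR-26-y and -1.09 for miR-26-z. A value below -1 was reached by 2 members, among 16.3% of the 1444 miRNAs compared, and nothing is read from that count because this contrast chose the family. The median was -0.86 over the members, 0.06 over all miRNAs and 0.02 over the 437 that averaged 10 TPM or more. The sizes turned on Hb2 and on the scaling. Without Hb2 the values were -0.65 for ssc-miR-26a, -0.52 for ssc-miR-26b-5p, -0.26 for ssc-miR-26b-3p, -0.43 for miR-26-x, -0.32 for miR-26-y and -0.94 for miR-26-z. For ssc-miR-26a the value was -1.51 without Hb1 and -0.77 from the mean TPM. Scaling by library size moved the median of all miRNAs to 0.32, and the members then ran from -0.75 for ssc-miR-26a to -0.16 for miR-26-y. No setting turned the sign of any member. Library by library, all Lb values lay below all Hb values for ssc-miR-26a and ssc-miR-26b-5p. For ssc-miR-26b-3p, miR-26-x, miR-26-y and miR-26-z the libraries of Hb and Lb overlapped, in TPM and on the TMM scale.

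**Figure D3:**
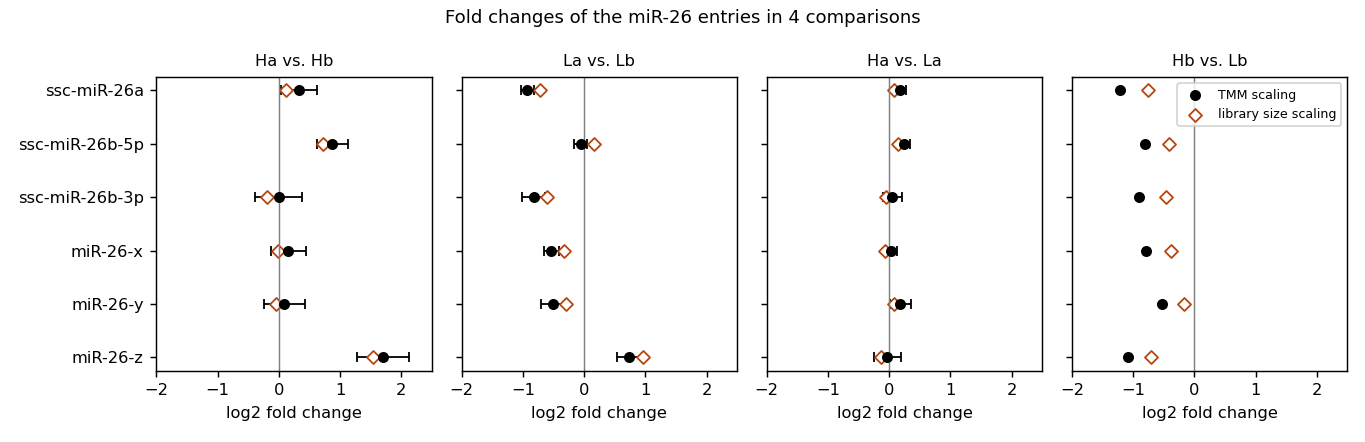
Log2 fold change of each miR-26 entry in 4 comparisons, second group over first. Filled points use TMM scaling with error bars of ± 1 SE in the 3 tested comparisons, and open diamonds use library size scaling. miR-26-z lies above 0 in both age comparisons, ssc-miR-26a lies below 0 in LC with either scaling, and all 6 entries lie below 0 in the breed comparison at 120 days, which carries no test.

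Ratios between members of the same library do not depend on the scaling. Per 1000 counts of ssc-miR-26a, ssc-miR-26b-5p had 11.1, 11.4 and 10.1 counts in Ha against 19.1, 12.7 and 18.8 in Hb. In LC it had 12.0, 11.0 and 10.9 counts at 30 days against 22.7, 20.4 and 18.9 at 120 days. In both breeds the 120-day libraries were all above the 30-day libraries, and Hb and Lb overlapped. The same held for miR-26-z, at 0.0736 ± 0.00932 counts (Ha), 0.201 ± 0.107 (Hb), 0.0642 ± 0.00716 (La) and 0.206 ± 0.0427 (Lb). For miR-26-x the means were 10.4 ± 0.128, 9.57 ± 1.83, 9.40 ± 0.136 and 12.3 ± 0.546, with the Lb libraries the highest and Hb spread across the other groups. Together, the members other than ssc-miR-26a made up 2.13% ± 0.0750 (Ha), 2.62% ± 0.504 (Hb), 2.07% ± 0.0685 (La) and 3.25% ± 0.187 (Lb) of the family counts.

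Within the miR-26b hairpin, the 5p arm had 45.1, 45.7 and 40.8 counts for each count of the 3p arm in Ha, and 68.2, 61.0 and 158 in Hb. The ratio was 55.5, 51.4 and 44.5 in La and 87.3, 82.1 and 85.3 in Lb. The 5p arm was thus the more abundant in all 12 libraries, and the 120-day libraries lay above the 30-day libraries in both breeds, with Hb3 far from the rest. ssc-miR-26a had 6047 ± 1055 (Ha), 6903 ± 2175 (Hb), 5986 ± 448 (La) and 4456 ± 183 (Lb) counts for each count of miR-26-y.

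**Figure D4:**
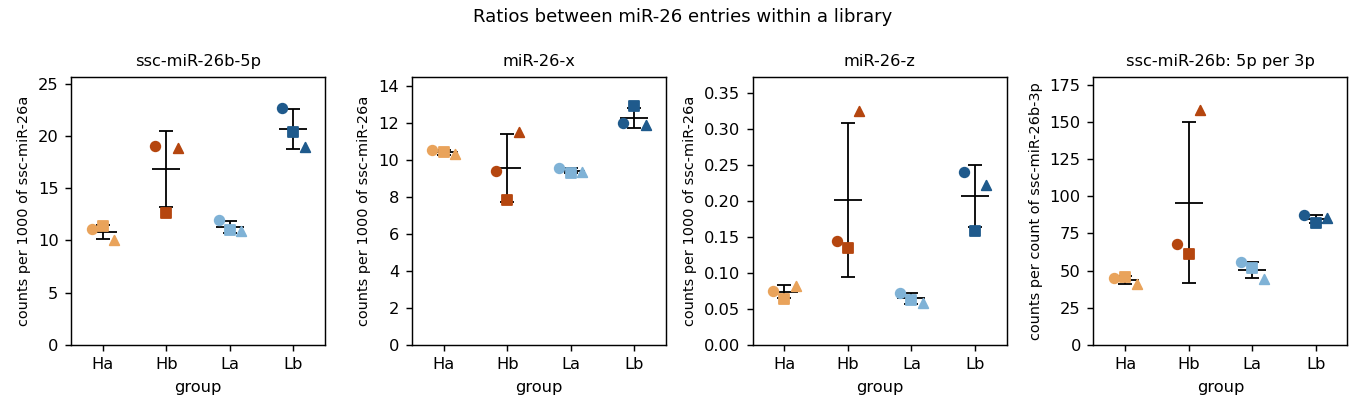
Ratios of counts within a library, by group: ssc-miR-26b-5p, miR-26-x and miR-26-z per 1000 counts of ssc-miR-26a, and ssc-miR-26b-5p per count of ssc-miR-26b-3p. Points are libraries (circle, square and triangle for replicates 1, 2 and 3), with the group mean and ± 1 SD. The 120-day libraries lie above the 30-day libraries of the same breed for ssc-miR-26b-5p, miR-26-z and the arm ratio, while miR-26-x in Hb overlaps both 30-day groups.

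miR-26-x and miR-26-z differ from ssc-miR-26a at their ends alone, and ssc-miR-26b-5p differs by 2 bases, so tags could be split between them in counting. Per 1000 counts of ssc-miR-26a, the group means were 9.40 to 12.3 counts for miR-26-x and 10.8 to 20.7 for ssc-miR-26b-5p. The Pearson correlation of log2(TPM + 1) with ssc-miR-26a over the 12 libraries was 0.854 for miR-26-x, 0.664 for ssc-miR-26b-3p, 0.475 for miR-26-y, 0.107 for ssc-miR-26b-5p and -0.11 for miR-26-z. These are descriptions, since the points share their library and its depth. How many tags of ssc-miR-26a were counted in the other entries was not tested.

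Marker miRNAs of other cell types differed in level beside these values. The 4 listed markers of meiotic and haploid germ cells, miR-34c and 3 entries of miR-449, were all detected, and their summed level went from 23.5 to 76.9 TPM (Ha) to 2580 to 13177 TPM (Hb), and from 16.6 to 24.6 TPM (La) to 11279 to 13895 TPM (Lb). miR-449-z had no counts in La. Among the Hb libraries the sum was 4303, 2580 and 13177 TPM, in an order that differed from that of ssc-miR-26a. In whole testis, fewer cells of a type and less RNA per cell cannot be told apart, and the part of germ cells in the changes was not tested. The 17 blood entries, all detected, summed to 2259 to 2672 TPM (Ha), 1218 to 3061 (Hb), 3359 to 3718 (La) and 1887 to 2329 (Lb). The 11 striated muscle entries, all detected, summed to 132 to 285, 453 to 745, 109 to 204 and 701 to 846 TPM in the same order. The 8 epithelial entries, also all detected, summed to 206 to 239, 52.5 to 248, 157 to 231 and 142 to 380 TPM. Their part in the changes of miR-26 was not tested either.

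Other miRNAs known to repress EZH2 were compared as a list of 15 entries of miR-101, miR-138, miR-124 and miR-214. In HZ between the ages, 4 of 15 were called higher and 0 lower, with 3 higher and 1 lower by adjusted p, against 39.6% called and 34.3% by adjusted p among all miRNAs. The called entries were all of miR-101. Without Hb2, 2 were called higher and 1 lower, against 39% of all, with 3 higher and 2 lower by adjusted p, against 39.5%. Those called without Hb2 were miR-101-x and miR-214-x, higher, and miR-214-z, lower. miR-101-z then had a log2 fold change of 1.02 (edgeR, unadjusted p 0.0518) and was not called. ssc-miR-101 measured 1865 ± 44.8 TPM in Ha and 3392 ± 548 in Hb and rose by 1.05 on the log2 scale (edgeR, adjusted p 0.0107). Without Hb2 its value was 0.81 (adjusted p 0.00191), under the fold threshold, and without Ha1 its adjusted p was 0.0521. The called miR-101-y had 5934 ± 3818 TPM in Hb, with a log2 fold change of 1.82 that was 0.97 without Hb2 and then not called. In LC 0 were called higher and 2 lower, with 2 higher and 4 lower by adjusted p, against 32.1% and 40.2% of all. The called entries were miR-214-y and miR-214-z, and miR-214-y was not called without La3, at a log2 fold change of -0.99. There ssc-miR-101 measured 2286 ± 95.0 TPM in La and 2240 ± 140 in Lb (log2 fold change -0.21, adjusted p 0.114). ssc-miR-214-3p fell by 0.77 in HZ (adjusted p 0.0259, and 0.0579 to 0.155 without Hb3 or any 1 Ha library) and by 0.64 in LC (adjusted p 0.000604), and ssc-miR-124a rose by 0.66 in LC (adjusted p 0.00248). Between the breeds at 30 days 1 entry was called higher, miR-214-x, which had no counts in Ha and an adjusted p of 0.181, and ssc-miR-101 was higher by 0.38 (adjusted p 0.0184, and 0.00354 to 0.0950 with 1 library left out), against 9.47% called and 11.3% by adjusted p of all. Among the fits with 1 library left out, miR-214-x was called only in that without La2. The list's median log2 fold change was -0.01 in HZ, -0.41 in LC and 0.23 between the breeds at 30 days, beside 0.32, 0.32 and -0.01 over all miRNAs. Over the 437 miRNAs that averaged 10 TPM or more it was 0.01, -0.06 and 0.03, though the list also holds entries below that level. At 120 days the values between the breeds were -1.01 for ssc-miR-101 and a median of -0.50 for the list, and without Hb2 they were -0.62 and -0.23.

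Outside the family, the 5 miRNAs whose log2(TPM + 1) followed ssc-miR-26a most closely over the 12 libraries were miR-27-z (Pearson's r 0.944), miR-320-z (0.910), miR-423-x (0.889), miR-222-y (0.865) and miR-214-y (0.788). The candidates were 426 miRNAs that had counts in every library and averaged 10 TPM or more. On the TMM scale, 3 of these 5 were again among the first 5, joined by ssc-miR-186-5p (0.952) and ssc-miR-30e-3p (0.951). These correlations are descriptions, as the libraries share depth and group.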

How the data were processed

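The 12 libraries came from small RNA of 18 to 30 nt. The authors filtered reads with fastp 0.18.0, removed tags of other RNAs and of the Sscrofa11.1 exons, introns and repeats, and matched the rest to miRBase 22.1. The authors deposited raw tag counts and TPM, each count divided by a library total and scaled to 1000000, with a count of 0 written as 0.01. Mismatch allowances of the counting are not given in the sources used here.

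From the counts, each comparison was fitted over its 6 libraries with edgeR 4.0.16 in R 4.3.3 (TMM, glmQLFit, glmQLFTest), over miRNAs with at least 1 count. The fit was tested on simulated data. DESeq2 1.42.0 was an alternative. Arm pairing used RNAduplex of ViennaRNA 2.7.2. Positions came from RefSeq.

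Named miRNAs were all members, any listed miRNA with the seed of ssc-miR-26a or within 3 edits of a member, the 5 most correlated with ssc-miR-26a, and entries of an EZH2 list. The members and lists were chosen with earlier results of these data known.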

Additional observations from a re-analysis of the deposited data

How the results depend on the processing

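The fall of ssc-miR-26a in LC kept its direction in all 15 alternatives and an adjusted p under 0.05 in all 14 that gave one, the largest being 0.00597. With 1 library left out it ran from -1.09 to -0.86. These settings reuse the Lb libraries, which enter the difference that chose the family. They show dependence on the processing alone and are not independent support. The Hb libraries put the same limit on the comparison by age in HZ. With 1 library left out, 0 to 1 members were called in La vs. Lb, the 1 being ssc-miR-26a without Lb2, and 1 to 2 in Ha vs. Hb, the second being ssc-miR-26b-5p without Hb1. Of all miRNAs, 420 to 481 were then called in La vs. Lb and 493 to 572 in Ha vs. Hb. With no library left out these were 464 (32.1%) and 570 (39.6%). The breed value of ssc-miR-26a at 120 days ran from -1.51 to -0.65 with 1 library left out, and was -0.75 with library size scaling and -0.77 from mean TPM. The rise of miR-26-z in HZ was called in all 15 alternatives, while that of ssc-miR-26b-5p had an adjusted p under 0.05 in 10 of 14. In LC miR-26-z passed in 11 of 14 and miR-26-x in 13 of 14, and with all 12 libraries in 1 fit their adjusted p was 0.145 and 0.0542. The cause was not tested. The share of ssc-miR-26a computed from the TPM was 9.07%, 9.81%, 9.67% and 5.75% in Ha, Hb, La and Lb, since the TPM divides by a larger total. With the 10 most abundant other miRNAs left out of the total it was 19.8%, 20.5%, 21.4% and 12.0% in the same order. A filter on low counts (filterByExpr) lowered the miRNAs called from 570 to 352, 464 to 257, 121 to 62 and 243 to 145 in the comparisons by age in HZ, by age in LC, by breed at 30 days and by breed at 120 days. Same-numbered libraries did not deviate together in every pair (correlation -0.233 to 0.188), and the main fit used no pairing. With 3 libraries per group, these correlations cannot settle whether libraries were paired. With a replicate block, ssc-miR-26a was 0.22, -0.93, 0.19 and -1.07 in the same order of comparisons, and the members called were again 1, 0 and 0 in the 3 tested. Of all miRNAs, 491 were then called by age in HZ and 436 by age in LC. The share called by breed at 30 days was 9.47% without the block. Removing the 10 most abundant other miRNAs from the fit was chosen after seeing the data, and changed no member's call. Leaving out libraries for the EZH2 list was also chosen after seeing the data. Depth limits miR-26-z, miR-26-y and ssc-miR-26b-3p most, since they have the fewest counts.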
